A study of Mus musculus with 13 samples.

Results

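Angiogenic ligands and angiopoietin-like proteins were followed in mouse mammary fibroblasts as 10 genes taken by symbol from the 32285 genes in the count tables: Vegfa, Vegfb, Pgf, Vegfc, Vegfd, Angpt1, Angpt2, Angptl1, Angptl2 and Angptl4. All 10 were found once by symbol, and each passed the filter on low counts in every test. The study profiled sorted mammary stromal cells by droplet-based single-cell RNA sequencing with 3′ counting of unique molecular identifiers (UMIs), in 13 libraries, to follow fibroblast subpopulations through development, hormone stimulation and tumorigenesis. Levels are given as CPM, the UMIs of a gene summed over the fibroblasts of a library and scaled to the same total in each, and every library was used.

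Of these libraries, 9 came from C57BL/6 wildtype females, sorted as Lineage-negative CD24-negative cells, from 2 pooled females per stage and, by the study's methods, 2 per hormone replicate. They comprised 1 library each at puberty (4 weeks of age in the labels, slightly older in the study's methods), in the virgin adult (9 weeks), on day 14.5 of pregnancy, on day 10 of lactation and on day 4 of involution, and 2 libraries each from 9-week females given placebo or a combination of medroxyprogesterone acetate and estradiol (MPA+E). The other 4 libraries came from raGFP-Wnt1 females of genotype Pdgfra-GFP KI/+ MMTV-Wnt1 T/+ on a C57BL/6 FVB mixed background, sorted as GFP+ cells, so that hyperplasia and tumor alike carried both alleles. In this model the mammary tumor virus promoter drives Wnt1 mainly in the epithelium, and GFP reports the Pdgfra locus, which limits the sort to cells that express it. A hyperplastic gland and a tumor were taken from each of 2 mice, mouse 1 at 45 weeks and mouse 2 at 17 weeks. The 2 libraries of a group measure only the spread between those libraries.

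Vegfa, Vegfb and Pgf encode ligands of the receptor Flt1, and Vegfa also signals through Kdr, the main receptor for blood vessel growth. Vegfc and Vegfd act through Flt4 on lymphatic endothelium, while Angpt1 activates the endothelial receptor Tek and Angpt2 acts on the same receptor as a context-dependent antagonist. Angptl1, Angptl2 and Angptl4 share the angiopoietin fold but do not bind Tek, and Angptl4 is best known as an inhibitor of lipoprotein lipase. Fibroblasts and pericytes are common sources of these ligands, whereas most of the receptors are carried by endothelium.

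A barcode was counted as a fibroblast when it had 500 to 7500 genes, at most 10% mitochondrial UMIs, at least 50 UMIs of Dcn, Lum and Col1a2 per 10000, and no UMI of Epcam, Pecam1, Rgs5, Sox10, Ptprc or Myog. This kept 100523 of 120355 barcodes, between 4236 and 11951 per library, with a median of 3990 to 20256 UMIs per cell. The rule itself fixes high Dcn, Lum and Col1a2 and a level of 0 for its 6 excluded genes, so these are no check of the label. Markers of other cell types summed to 15.4 to 53.2 CPM for pericytes, 2.05 to 51.4 for Schwann cells, 1.14 to 59.0 for luminal, 1.2 to 38.8 for basal, 1.24 to 5.74 for endothelial and 0.777 to 8.67 for immune cells. Pairs of libraries shared 3 to 34 fibroblast barcodes, at most 0.504% of the smaller library.

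In the GRCm38 build with GENCODE M21 genes, Vegfa (ENSMUSG00000023951) lies on chromosome 17 from 46016993 to 46032369, minus strand, and Angptl4 lies on the same chromosome from 33773750 to 33781830, minus strand. Vegfc lies on chromosome 8 from 54077606 to 54187096, plus strand, and Angpt2 on the same chromosome from 18690263 to 18741562, minus strand. Vegfb lies on chromosome 19 from 6982473 to 6987651 and Pgf on chromosome 12 from 85166635 to 85177790, both on the minus strand. Vegfd lies on the plus strand of chromosome X from 164373378 to 164402650, and Angpt1 on the minus strand of chromosome 15 from 42424723 to 42676977. Angptl1 lies on chromosome 1 from 156838562 to 156861078 and Angptl2 on chromosome 2 from 33216069 to 33247717, both on the plus strand. Genes on the opposite strand overlap Angpt1 (Gm17473), Angpt2 (Mcph1), Angptl1 (Ralgps2 and Gm37802) and Angptl2 (Ralgps1), and whether the counting used strand is not given in the sources used here. Counting at the 3′ end also does not separate the splice forms of a gene.

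The members also differed in how steady they were across the 13 libraries. Angptl2 and Vegfb were the steadiest, with the highest library at 2.25 and 2.27 times the lowest, and Angptl1 varied most, at 17.8 times. Angpt2 spanned 8.92 times, Vegfc 6.45 times and Pgf 6.4 times, and the other members 2.94 to 3.80 times. In summed counts, fewer cells of a type and less RNA per cell cannot be told apart. After each cell was thinned to 2000 UMIs, which left out 86 to 1310 shallower cells per library, the share of fibroblasts with a UMI ran from 20.8% to 41.1% for Angptl2 and from 0.571% to 4.04% for Pgf. Most fibroblasts therefore showed no UMI of a given member at this depth, and a cell with no UMI is not shown to lack the transcript. The share over all fibroblasts was 14.6% for Vegfa after thinning and 39.5% without it.

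**Figure D1:**
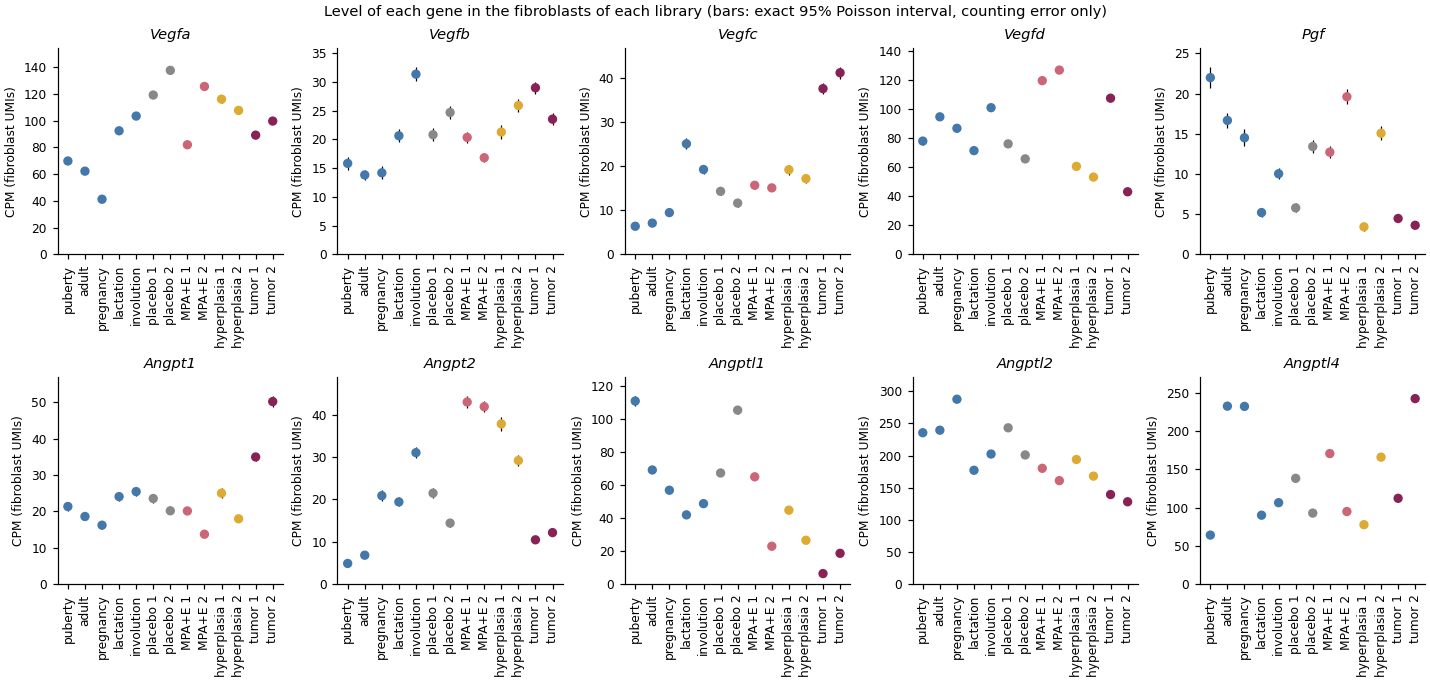
Level of each of the 10 genes in fibroblasts of the 13 libraries, in CPM of summed UMIs on a linear axis from 0, one point per library and one panel per gene, with exact 95% Poisson intervals that cover counting error only. Vegfc is highest in both tumor libraries, Angpt2 in both MPA+E libraries, and Angptl1 is lowest in tumor 1 at 6.24 CPM.

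To place the ligands among fibroblast subpopulations, each library was clustered alone, with the members, the pathway lists and the state markers left out of the clustering genes. Clusters were named from marker lists as progenitor-like (Pi16, Dpp4), preadipocyte-like (Fabp4, Pparg), ECM remodelling-like (Crabp1, Lox), lobular-like (Bmp5, Thbs4), adipogenesis-regulatory-like (Gdf10, F3), cycling and myofibroblastic-like (Acta2, Tagln), hereafter without the suffix. Between 4.18% and 51.7% of fibroblasts in a library stayed in unnamed clusters. The names were rebuilt here, so that states may not match those of the study. A gene that leads in a state is a description of the clusters and carries no test. For 9 of the 10 members, all but Angpt1, some named state was the highest in most of the libraries that held it, which 80.9% of all genes tested also met. Any state could qualify, however few libraries held it, and the state with the largest share was taken. Vegfa was thus counted through the myofibroblastic state (2 of 2) and Vegfb through the cycling state (3 of 5). The adipogenesis-regulatory state also met the rule for Vegfa (9 of 12). A stricter reading, chosen after the values were seen, asked that the highest state reach at least 2 times the next one in every library, which 2 members (Angpt2 and Angptl1) and 0.404% of all genes met.

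Angpt2 was highest in the ECM remodelling state in all 12 libraries that held it, at 45.0 to 177 CPM with a median of 90.1 CPM. The progenitor state lay at 0 to 3.44 CPM and the lobular state at 0.220 to 5.08 CPM. The highest state exceeded the next one by 2.81 to 11.9 times, and ECM remodelling cells, 6.19% to 29.6% of fibroblasts, gave 33.8% to 79.9% of the Angpt2 UMIs. At puberty, where no cluster was named ECM remodelling, Angpt2 was highest in the adipogenesis-regulatory state at 30.3 CPM.

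Angptl1, which is widely expressed in stromal tissue, marked the lobular state. It reached 304 to 660 CPM (highest value 659.5) with a median of 377 CPM in the 11 libraries that held this state, and 57.2% to 94.4% of lobular cells had a UMI. The ECM remodelling state lay at 2.90 to 21.5 CPM. Lobular cells were 1.53% to 18.3% of fibroblasts and gave 17.3% to 75.1% of the Angptl1 UMIs. Both the share of these cells and the level within them differed between libraries. No cluster was named lobular in the tumors, where Angptl1 was highest in the adipogenesis-regulatory state of tumor 1 (35.5 CPM) and the progenitor state of tumor 2 (84.1 CPM).

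Among the VEGF ligands, Pgf was highest in the progenitor state in all 13 libraries, at 6.14 to 53.7 CPM with a median of 32.8 CPM. The ECM remodelling state held 0 to 1.13 CPM and the preadipocyte state 0.277 to 1.49 CPM of this gene. Vegfc showed the opposite placement, leading in the ECM remodelling state in 12 of 12 libraries at 19.5 to 90.9 CPM, with 1.09 to 6.28 CPM in the progenitor state. Lobular cells lay between, at 10.9 to 29.6 CPM. The highest state of Vegfc exceeded the next by a median of 1.41 times, and their Poisson intervals lay apart in 8 of 13 libraries. The myofibroblastic state, found in the tumors alone, held 59.1 and 40.7 CPM of Vegfc.

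Vegfa was highest in the adipogenesis-regulatory state in 9 of 12 libraries, at 66.3 to 297 CPM with a median of 199 CPM. The progenitor state led at puberty and in MPA+E 2, and the myofibroblastic state led in both tumors, at 97.2 and 105 CPM. Cycling cells came next in the tumors, at 89.5 and 100 CPM, with overlapping Poisson intervals. Lobular cells lay at 18.1 to 71.6 CPM and ECM remodelling cells at 17.8 to 97.9 CPM. Vegfd, the lymphatic ligand, was highest in preadipocytes in 7 of 10 libraries (47.1 to 204 CPM) and in progenitors in the other 6 of 13 (52.7 to 225 CPM), and lay at 16.5 to 54.0 CPM in lobular cells. Vegfb was highest in 5 different states, in 1 to 4 libraries each, and the highest state exceeded the next by a median of 1.18 times. Its medians ran from 13.4 CPM in lobular cells to 32.0 CPM in the 2 libraries with myofibroblastic cells.

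Angpt1, the Tek agonist, was split between the adipogenesis-regulatory state (highest in 6 of 12 libraries, 32.0 to 68.0 CPM) and the lobular state (5 of 11, 32.6 to 68.2 CPM). In the tumors it was highest in the myofibroblastic state of tumor 1 (56.3 CPM) and the ECM remodelling state of tumor 2 (74.0 CPM). Progenitors held 1.4 to 21.1 CPM of Angpt1. Angptl2, a secreted glycoprotein linked to adipose inflammation, was highest in preadipocytes in 8 of 10 libraries at 226 to 409 CPM, with 65.4 to 187 CPM in the adipogenesis-regulatory state. Its highest state exceeded the next by a median of 1.12 times and at most 1.33 times, and their Poisson intervals lay apart in 8 of 13 libraries. Angptl4 led in the ECM remodelling state in 7 of 12 libraries (97.3 to 429 CPM) and in preadipocytes in 5 of 10 (84.5 to 424 CPM), whereas lobular cells held 19.4 to 173 CPM. Progenitors led in tumor 2, at 432 CPM against 273 CPM in ECM remodelling cells, the highest value of Angptl4 in any named state. Over the 13 libraries progenitors had a median of 50.1 CPM. The ECM remodelling state, which led for Angpt2, held 5.25 to 74.0 CPM of Angpt1 with a median of 22.2 CPM, and led for both angiopoietins in tumor 2.

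**Figure D2:**
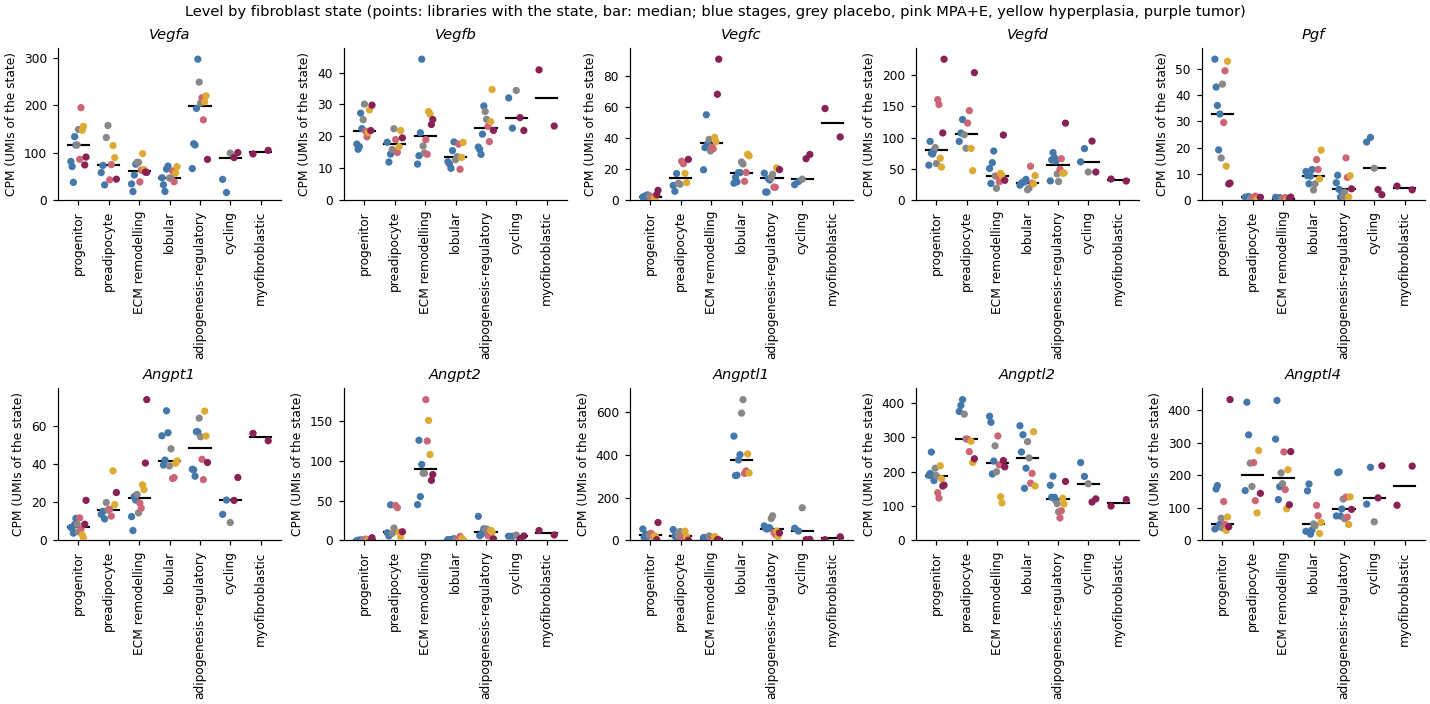
Level of each gene by named fibroblast state, in CPM of UMIs summed over the cells of that state in a library, one point per library that held the state and a bar at the median, on linear axes from 0. Angpt2 stands apart in the ECM remodelling state (median 90.1 CPM) and Angptl1 in the lobular state (median 377 CPM), while the medians of Vegfb run from 13.4 CPM (lobular) to 32.0 CPM (myofibroblastic).

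The few barcodes of other cell types that passed the sort gave a setting for these levels. They were pooled over libraries and had too few fibroblast UMIs to count as fibroblasts, and after thinning they numbered 1395 basal, 1319 pericyte, 364 myogenic, 330 endothelial, 194 luminal and 127 Schwann cells. Their median UMIs ran from 1967.5 to 10007, against 8703 in fibroblasts. They also held fibroblast transcripts, since Dcn had a UMI in 13.2% of pericytes and up to 60.2% of basal cells, and the part of free RNA in the shares was not tested. The 95% exact binomial intervals given here cover counting error only.

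Among the types listed above, Vegfd was the member most restricted to fibroblasts, with a UMI in 13.1% (12.9 to 13.3) of fibroblasts and 0% to 2.06% of the 6 other types. Immune and adipocyte barcodes, 39 and 13 after thinning, are not among these types. Vegfd had a UMI in 0 of both (up to 9.03% and 24.7%). Its summed level over 14 adipocyte barcodes before thinning was 40.9 CPM, against 85.6 CPM in fibroblasts. Angptl1 had a UMI in 7.53% (7.37 to 7.70) of fibroblasts, 2.75% (1.33 to 4.99) of myogenic cells and at most 0.430% of the other 5 types. For Schwann cells the 0 of 127 allows a share of up to 2.86% for both genes. Angptl2 was found in 30.01% of fibroblasts, 17.3% (11.2 to 25) of Schwann cells and 14.9% (13.1 to 17.0) of pericytes.

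Pgf was more frequent in other types, with 18.0% (16.0 to 20.2) of pericytes and 9.89% (8.38 to 11.6) of basal cells against 1.98% (1.90 to 2.07) of fibroblasts. Its summed level was 116 CPM in pericytes and 11 CPM in fibroblasts. Luminal (6.70%, 3.62 to 11.2) and endothelial cells (4.55%, 2.57 to 7.39) also lay above fibroblasts, and myogenic cells lay below at 0.549% (0.0666 to 1.97). Pooled over libraries, both angiopoietins were also more frequent in pericytes, with Angpt2 in 11.2% (9.57 to 13) against 4.03% (3.90 to 4.15) of fibroblasts and Angpt1 in 7.13% (5.80 to 8.65) against 4.47% (4.35 to 4.61). The mix of libraries differs between cell types, and the Angpt1 share of fibroblasts ran from 2.75% to 10.1% among libraries, and the part of that mix in the order was not tested. Angpt2 was also found in 6.06% (3.74 to 9.21) of endothelial cells, where Angpt1 was found in 0 of 330. Angptl4 was found in 40.6% (35.3 to 46.1) of endothelial cells and 36.3% (33.7 to 38.9) of basal cells, both above the 21.0% of fibroblasts.

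Vegfa was found in 14.6% of fibroblasts, with overlapping shares in basal (13.3%, 11.6 to 15.2) and luminal cells (14.4%, 9.81 to 20.2) and a lower one in pericytes (5.61%, 4.43 to 6.99). Vegfc was found in 3.42% of fibroblasts and 3.33% (1.68 to 5.89) of endothelial cells, and in 1 of 1319 pericytes. Vegfb was found in 4.24% (4.11 to 4.37) of fibroblasts and 1.82% to 7.09% of the other types. The fibroblast share lay inside the intervals of pericytes (2.83 to 4.97), luminal (0.842 to 5.91), myogenic (1.52 to 5.34) and Schwann cells (3.29 to 13.03) and above those of endothelial (0.670 to 3.92) and basal cells (2.30 to 4.21).

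**Figure D3:**
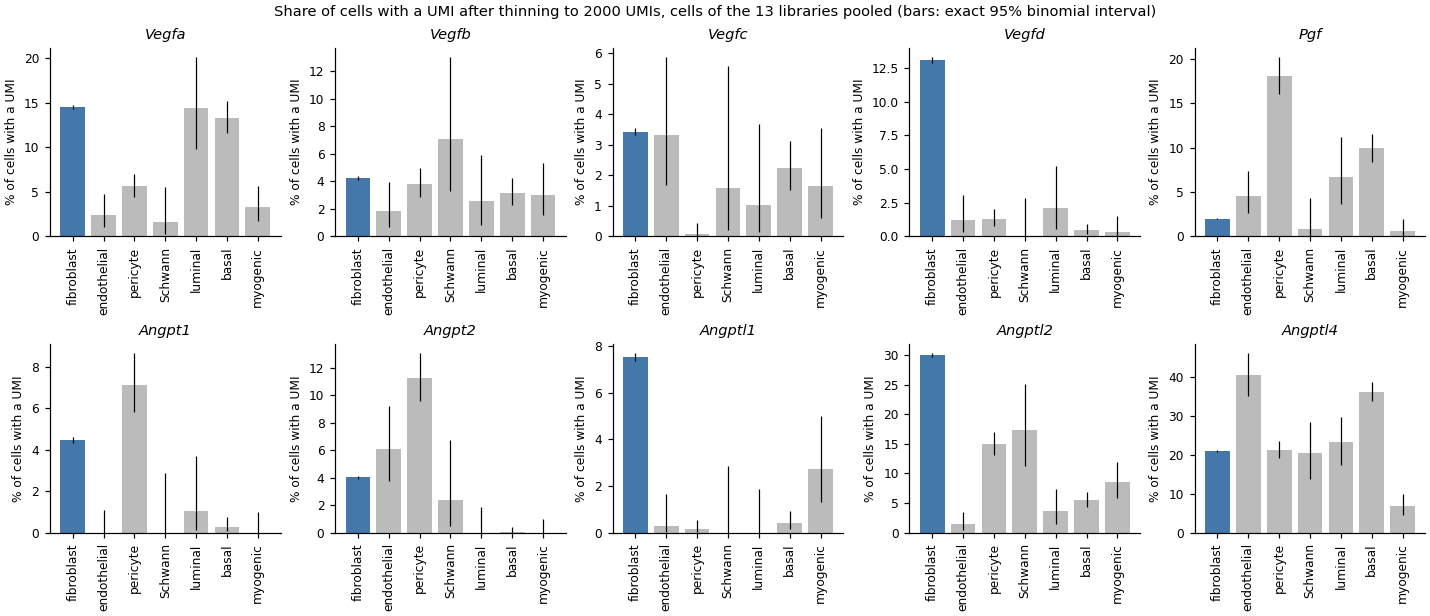
Bars give the percent of cells with a UMI of each gene after thinning to 2000 UMIs per cell, by cell type, pooled over libraries, with 95% exact binomial intervals. Vegfd is highest in fibroblasts (13.1%), Pgf in pericytes (18.0%) and Angptl4 in endothelial cells (40.6%).

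To see how the ligands moved through the reproductive cycle, the 5 stage libraries were compared. Each stage has 1 library, so that no test was possible, and intervals are exact Poisson intervals of the counts. For 7 of the 10 members the highest stage was at least 2 times the lowest, which 17.9% of all genes with a mean of at least 5 CPM met. The members below this fold were Vegfd (1.41 times), Angpt1 (1.57 times) and Angptl2 (1.63 times).

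Angpt2 had the largest range, with 4.82 CPM at puberty, 6.77 in adults, 20.9 during pregnancy, 19.4 during lactation and 31.0 at involution. The highest stage was 6.43 times the lowest (5.62 to 7.39), and only pregnancy and lactation had overlapping intervals. Vegfc stood at 6.38 CPM at puberty, 7.10 in adults, 9.47 during pregnancy, 25.1 during lactation and 19.2 at involution, a range of 3.93 times (3.47 to 4.45). Both genes were thus lower in the virgin stages, and the puberty and adult intervals of Vegfc overlapped.

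Pgf ran the other way, from 22.0 CPM at puberty through 16.7 in the adult, 14.5 in pregnancy and 10.0 in involution to 5.21 in lactation. The puberty level was 4.22 times that of lactation (3.73 to 4.79). Angptl1 kept the same order of stages, from 111 CPM at puberty through 69.2, 56.9 and 48.8 to 41.9 CPM in lactation, a range of 2.65 times (2.53 to 2.78). None of the neighbouring stages overlapped for either gene. Pericyte markers, from a cell type with more Pgf than fibroblasts, summed to 53.2 CPM at puberty and 24.3 to 31.6 CPM at the other stages, and basal markers to 38.8 CPM in pregnancy and 3.42 to 4.56 CPM at the others. Most of the pericyte sum came from Abcc9 and Kcnj8, and Rgs5 was at 0 by the rule. Notch3 was highest at puberty (4.04 CPM). Higd1b, with at most 8 UMIs per stage, was highest during pregnancy (0.168 CPM) and lower at puberty (0.041 CPM). The part of pericytes and basal cells in the Pgf order was not tested. Lobular cells, the state in which Angptl1 was highest, were 15.5% of fibroblasts at puberty, 18.3% in adults, 11.2% during pregnancy, 8.24% during lactation and 8.38% at involution, and their part in this order was not tested.

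Vegfa was lowest in pregnancy at 41.3 CPM, with 62.3 CPM in the adult, 69.9 at puberty, 92.5 in lactation and 103 in involution. The median UMIs per cell of these libraries rose in the same order (3990, 5805, 6663, 7105 and 7293). The part of depth in the Vegfa order was not tested. Vegfb, a ligand linked to fatty acid handling, was highest in involution (31.4 CPM) and lactation (20.6 CPM), while puberty (15.8), pregnancy (14.2) and the adult (13.8 CPM) overlapped. Both ligands were therefore highest in the 2 stages after birth. Angptl4 was 3.64 times higher in the adult (233 CPM) than at puberty (63.9 CPM), with pregnancy at 232, involution at 106 and lactation at 89.9 CPM. Adult and pregnancy overlapped for this gene.

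Vegfd stayed between 71.5 CPM in lactation and 101 CPM in involution. Angpt1 stayed between 16.2 CPM in pregnancy and 25.4 CPM in involution, and its lactation (24.0 CPM) and involution intervals overlapped. Angptl2 stayed between 177 CPM in lactation and 288 CPM in pregnancy, with puberty (236 CPM) and the adult (239.5 CPM) overlapping. Milk protein transcripts in these fibroblasts summed to 468 CPM in the lactation library and 15.8 CPM in pregnancy, and their part in the stage differences was not tested.

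Acute hormone stimulation was examined by comparing MPA+E with placebo. Angpt2 and Vegfd rose, the remaining members did not pass the test, and both risers had groups that did not overlap. The count of 2 of 10 members called higher stands beside 2.69% of the 15642 genes tested, and the count of 0 called lower beside 1.64% (edgeR quasi-likelihood test with Benjamini-Hochberg adjustment), or 4.33% in either direction. At an unadjusted p under 0.05, 1 member was lower, and DESeq2 and limma-voom called 0 lower. The median log2 fold change of the members was -0.04, and that of all genes 0.01.

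Angpt2 was at 21.4 and 14.4 CPM in the placebo libraries and at 43.0 and 41.9 CPM in the MPA+E libraries. Both MPA+E libraries lay above both placebo libraries and above every other library. The log2 fold change was 1.27 (SE 0.17, adjusted p = 0.0247, edgeR), a 2.41-fold rise. Vegfd was at 76.1 and 65.8 CPM with placebo and 119.7 and 127 CPM with MPA+E, the highest values among the 13 libraries. Its log2 fold change was 0.81 (SE 0.11, adjusted p = 0.0255, edgeR). Both calls were lost when either placebo library was left out, at adjusted p = 0.0516 and 0.0860 for Angpt2 and 0.167 and 0.195 for Vegfd (edgeR), without placebo 1 and placebo 2 in that order.

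Within the ECM remodelling state, Angpt2 stood at 84.5 and 84.6 CPM with placebo and 177 and 125 CPM with MPA+E. Preadipocytes went the same way, from 8.84 and 15.7 to 43.9 and 41.3 CPM. The adipogenesis-regulatory state went the other way, with 14 and 14.5 CPM under placebo against 6.08 and 6.03 CPM under MPA+E, and the difference between states was not tested. ECM remodelling cells were 24.4% and 13% of fibroblasts with placebo and 15.9% and 29.6% with MPA+E, so their shares overlapped. Pericyte markers, whose cells also carry Angpt2, summed to 46.6 and 46.9 CPM in the placebo fibroblasts and 20.2 and 17.9 CPM in the MPA+E fibroblasts. Most of that sum came from Abcc9 and Kcnj8, while Rgs5 was at 0 by the rule, Higd1b lay at 0.0288 and 0.208 CPM with placebo and 0.253 and 0.263 CPM with MPA+E, and Notch3 overlapped, and the part of pericytes in the Angpt2 difference was not tested. Luminal markers (29.8 and 26.3 against 5.11 and 4.79 CPM) and basal markers (4.20 and 4.13 against 1.62 and 1.62 CPM) also summed lower with MPA+E. Most of the luminal sum was Krt19, while Krt8 went the other way, at 0.0432 and 0.0693 against 0.0804 and 0.0987 CPM. Krt18 and Cldn4 overlapped, and Epcam was at 0 by the rule. Most of the basal sum was Oxtr, and the remaining basal markers overlapped. The part of luminal and basal cells in these differences was not tested either.

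Vegfd was higher with MPA+E within progenitors, where it went from 84.0 and 58.4 to 161 and 153 CPM. In preadipocytes Vegfd went from 104 and 82.8 to 123 and 143 CPM, and in the unnamed clusters from 108 and 97.8 to 191 and 234 CPM. In the ECM remodelling state the groups overlapped. Vegfd thus lay higher in several states, whereas Angpt2 differed in both directions among states.

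Among the members that did not pass, Angptl1 stood at 67.4 and 106 CPM with placebo and 65.1 and 22.9 CPM with MPA+E, for a log2 fold change of -1.0 with an SE of 0.51 (adjusted p = 0.390, edgeR). Without MPA+E 1 it was -1.88 with a call (adjusted p = 0.0164, edgeR), and without MPA+E 2 it was -0.46. Within lobular cells its groups lay apart, at 596 and 659.5 CPM with placebo and 314 and 326 CPM with MPA+E. It was also lower in the adipogenesis-regulatory state, at 103 and 115 against 37.4 and 27.5 CPM. Lobular cells were 4.01% and 6.25% of fibroblasts with placebo and 13.6% and 2.00% with MPA+E, so the 2 MPA+E libraries differed in this share more than the groups did.

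Vegfa stood at 119 and 138 CPM with placebo and 82.0 and 126 CPM with MPA+E, and Vegfb at 20.8 and 24.7 against 20.4 and 16.8 CPM. The groups overlapped for Vegfa and lay next to each other for Vegfb. Vegfc stood at 14.3 and 11.6 against 15.7 and 15.1 CPM (log2 fold change 0.26, adjusted p = 0.279, edgeR). Pgf stood at 5.79 and 13.4 against 12.7 and 19.6 CPM, a log2 fold change of 0.75 with an SE of 0.48. None of these 4 ligands passed the test. Angpt1 stood at 23.5 and 20.1 against 20.1 and 13.7 CPM, and Angptl2 at 243 and 201 against 180.1 and 161 CPM (adjusted p = 0.153, edgeR). Angpt1 was called without MPA+E 1 (log2 fold change -0.62, adjusted p = 0.0390, edgeR). Angptl4 stood at 138 and 92.7 against 171 and 94.7 CPM, with overlapping groups.

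**Figure D4:**
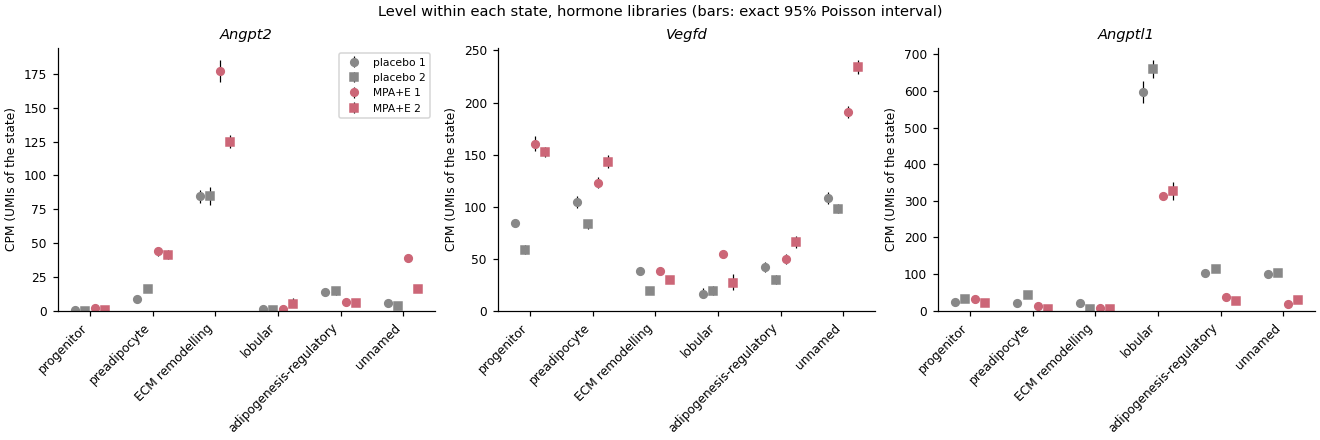
Angpt2, Vegfd and Angptl1 by fibroblast state in the 2 placebo and 2 MPA+E libraries, in CPM of UMIs summed over the cells of a state, one point per library with its exact 95% Poisson interval. Angpt2 is higher with MPA+E in ECM remodelling cells (177 and 125 against 84.5 and 84.6 CPM) and Angptl1 is lower in lobular cells (314 and 326 against 596 and 659.5 CPM).

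To follow the ligands through tumorigenesis, hyperplasia was compared with normal fibroblasts (the puberty and adult libraries) and tumor with hyperplasia, in 1 limma-voom fit over 6 libraries. The comparisons share the hyperplasia libraries and are therefore not independent. Strain, sort, reporter allele and age differ between hyperplasia and normal and cannot be told apart from the change in tissue. Vegfc was higher in hyperplasia than in normal and higher again in the tumors, and Angpt2 was higher in hyperplasia and lower in the tumors. Vegfa was higher in hyperplasia than in these normal libraries but not than in the placebo libraries, which were outside this fit. Angpt1 was higher in the tumors than in hyperplasia.

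In hyperplasia against normal, 3 of 10 members were called higher, beside 7.70% of the 16302 genes tested, and 0 lower, beside 6.29% (limma-voom with Benjamini-Hochberg adjustment). At an unadjusted p under 0.05, 4 members were higher and 2 lower, and DESeq2 called 1 and edgeR 0 lower. In tumor against hyperplasia, 2 members were called higher, beside 15.4% of genes, and 1 lower, beside 13.9%. At an unadjusted p under 0.05, 3 members were lower, and DESeq2 called 3 lower and edgeR 1. In either direction, 3 of 10 members were called in a comparison that called 29.3% of all genes, which is near that background.

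Angpt2 was at 4.82 and 6.77 CPM at puberty and in the adult, 37.8 and 29.2 CPM in hyperplasia, and 10.4 and 12.1 CPM in the tumors. The 3 groups did not overlap. Its log2 fold change was 2.47 in hyperplasia against normal (SE 0.23, adjusted p = 0.00675, limma-voom), a 5.55-fold difference, and -1.56 in tumor against hyperplasia (SE 0.20, adjusted p = 0.00700). Within the ECM remodelling state Angpt2 stood at 45.0 CPM in the adult and at 151 and 108 CPM in hyperplasia. The tumors held 75.5 and 82.9 CPM. The adult was the only normal library with this state, and its level lay below those of the tumors and hyperplasia. The placebo libraries, outside this fit, held 84.5 and 84.6 CPM in this state, above both tumors. In the unnamed clusters Angpt2 went from 1.27 and 1.64 CPM in normal to 47.8 and 32.2 CPM in hyperplasia, although these hold different leftover clusters in each library. Preadipocytes (9.69 and 5.65 CPM in normal, 10.2 and 4.69 CPM in hyperplasia) and adipogenesis-regulatory cells (30.3 and 6.02 CPM, then 12.7 and 10.5 CPM) overlapped between the groups.

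Vegfc was at 6.38 and 7.10 CPM at puberty and in the adult, 19.2 and 17.2 CPM in hyperplasia, and 37.5 and 41.1 CPM in the tumors. Its log2 fold change was 1.39 in hyperplasia against normal (SE 0.16, adjusted p = 0.00988, limma-voom) and 1.12 in tumor against hyperplasia (SE 0.14, adjusted p = 0.00694). The groups did not overlap at either step. Within the ECM remodelling state Vegfc stood at 19.5 CPM in the adult, 40.5 and 37.6 CPM in hyperplasia, and 68.3 and 90.9 CPM in the tumors. The placebo libraries, outside this fit, held 39.1 and 31.7 CPM there and overlapped with hyperplasia. Progenitors, where Vegfc was low, did not follow the first step. They held 1.91 and 2.17 CPM at puberty and in the adult, 1.09 and 1.34 CPM in hyperplasia and 3.43 and 6.28 CPM in the tumors. Their hyperplasia values thus lay below normal without overlap.

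Vegfa was at 69.9 and 62.3 CPM in the normal libraries and 116 and 108 CPM in hyperplasia (log2 fold change 0.72, SE 0.15, adjusted p = 0.0350, limma-voom). The placebo libraries, which were wildtype and 9 weeks old like the adult, held 119 and 138 CPM. In the tumors Vegfa stood at 89.2 and 99.8 CPM, a log2 difference of -0.24 from hyperplasia that did not pass (adjusted p = 0.262, limma-voom). The adipogenesis-regulatory state held 66.3 and 119 CPM in normal and 207 and 219.5 CPM in hyperplasia. Progenitors held 81.2 and 70.6 CPM in normal, 147 and 155 CPM in hyperplasia, and 74.0 and 90.6 CPM in the tumors.

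Angpt1 was at 21.3 and 18.6 CPM in normal, 25 and 17.9 CPM in hyperplasia, and 34.9 and 50.2 CPM in the tumors. Normal and hyperplasia overlapped, and both tumors lay above them. The tumor against hyperplasia log2 fold change was 0.99 (SE 0.24, adjusted p = 0.0280, limma-voom). With the mouse as a block, in a fit that also left out the normal libraries, the log2 fold change was 0.996 and the call was lost (adjusted p = 0.0608, limma-voom). Myofibroblastic cells, which were 35.2% and 70.5% of tumor fibroblasts, held 56.3 and 52.4 CPM of Angpt1. In ECM remodelling cells it went from 29.2 and 26.8 CPM in hyperplasia to 40.7 and 74.0 CPM in the tumors.

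Leaving out a library ended many calls, of all genes as well as of members, while the 6 called differences kept their direction. The log2 fold change ranged from 1.30 to 1.48 for Vegfc, 2.28 to 2.73 for Angpt2 and 0.63 to 0.85 for Vegfa in hyperplasia against normal, and from 1.03 to 1.2 for Vegfc, -1.76 to -1.37 for Angpt2 and 0.74 to 1.23 for Angpt1 in tumor against hyperplasia. In tumor against hyperplasia, leaving out hyperplasia 1 or 2 gave adjusted p = 0.0565 and 0.0593 for Vegfc, and leaving out hyperplasia 1 gave 0.0602 for Angpt2 (limma-voom). The Angpt1 call was lost without puberty (0.0559), the adult (0.0568), hyperplasia 1 (0.0859), hyperplasia 2 (0.135) or tumor 2 (0.0558), all adjusted p from limma-voom. In hyperplasia against normal, the Vegfa and Vegfc calls were lost without any 1 of puberty, the adult, hyperplasia 1 or hyperplasia 2, at adjusted p from 0.120 to 0.216 and from 0.0680 to 0.0997. Angpt2 lost its call without puberty (0.0708), hyperplasia 1 (0.0677) or hyperplasia 2 (0.0626) and kept it without the adult (adjusted p = 0.0427, limma-voom). That comparison holds no tumor library but shares its fit with the tumors. Leaving out tumor 1 or tumor 2 added calls for Vegfb, Vegfd and Angptl1 in it (limma-voom), and the cause was not tested.

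With all libraries, the filter on low counts and no mouse block, the angiopoietin-like genes did not pass in either step (limma-voom). DESeq2 called Angptl1 lower in both (adjusted p = 0.0372 in hyperplasia against normal and 0.013 in tumor against hyperplasia) and Angptl2 lower in the tumors (adjusted p = 0.0400). Angptl1 was at 111 and 69.2 CPM in normal, 44.8 and 26.5 CPM in hyperplasia, and 6.24 and 18.6 CPM in the tumors, with no overlap between neighbouring groups. The part of the lobular share in this order was not tested. Its log2 fold change in tumor against hyperplasia was -1.68 (SE 0.53, adjusted p = 0.0547, limma-voom), and it was -2.43 without tumor 2 (adjusted p = 0.00844, limma-voom) and -0.91 without tumor 1 (adjusted p = 0.0840). Without the filter on low counts Angptl1 was called lower in the tumors (log2 fold change -1.65, adjusted p = 0.0494, limma-voom), and without tumor 1 or tumor 2 in the fit it was called lower in hyperplasia against normal (adjusted p = 0.0164 and 0.0165, limma-voom). Lobular cells were 15.5% and 18.3% of fibroblasts in normal and 3.21% and 1.53% in hyperplasia, with no lobular cluster named in the tumors. Angptl2 was at 236 and 239.5, 194 and 168, and 139 and 128 CPM in the 3 groups, again without overlap (adjusted p = 0.110 and 0.0799 for the 2 steps, limma-voom). Within the ECM remodelling state Angptl2 lay the other way, at 127 and 109 CPM in hyperplasia and 232 and 213 CPM in the tumors.

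Angptl4 was at 63.9 and 233 CPM in normal, 77.5 and 166 CPM in hyperplasia, and 112 and 243 CPM in the tumors. Within each mouse the tumor exceeded the hyperplasia. With the mouse as a block, in a fit that also left out the normal libraries, the log2 fold change was 0.54 with an adjusted p of 0.0423 (limma-voom). Without the block and with the normal libraries the adjusted p was 0.548 (limma-voom). The 2 mice lay further apart within a tissue than the 2 tissue means did.

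Of the remaining ligands, Pgf was at 22.0 and 16.7 CPM in normal, 3.43 and 15.1 CPM in hyperplasia, and 4.47 and 3.62 CPM in the tumors (adjusted p = 0.153 and 0.313, limma-voom). Within progenitors Pgf held 12.9 and 52.9 CPM in hyperplasia and 6.14 and 6.48 CPM in the tumors. The 2 hyperplasia libraries thus differed more from each other than their mean differed from that of normal or tumor. Vegfd was at 78.0 and 94.7, 60.6 and 53.3, and 108 and 43.1 CPM, so the 2 tumors lay on either side of all the hyperplasia and normal values. Without tumor 2 its log2 fold change in tumor against hyperplasia was 0.95 with an adjusted p of 0.0141 (limma-voom). Vegfb was at 15.8 and 13.8, 21.3 and 25.9, and 29.0 and 23.5 CPM, with adjusted p = 0.0739 in hyperplasia against normal and 0.556 in tumor against hyperplasia (limma-voom). DESeq2 called Vegfb higher in hyperplasia against normal (log2 fold change 0.64, adjusted p = 0.0270). The placebo libraries, outside this fit, held 20.8 and 24.7 CPM of Vegfb. Pericyte markers summed to 53.2 and 28.3 CPM in the normal fibroblasts, 43.4 and 29.0 CPM in hyperplasia, and 41.9 and 15.4 CPM in the tumors, with overlapping groups. Immune markers were higher in the tumors, at 5.004 and 7.71 CPM against 0.850 and 1.105 CPM in hyperplasia, and luminal markers were lower, at 3.75 and 1.14 against 19.9 and 59.0 CPM. Schwann markers (10.03 and 2.05 against 19.0 and 25.3 CPM) and basal markers (2.06 and 1.196 against 2.89 and 3.52 CPM) also lay lower in the tumors. Most of the luminal sum was Krt19, while Krt18 lay higher in the tumors (0.332 and 0.103 against 0.0708 and 0.0828 CPM). Krt8 and Cldn4 overlapped. Endothelial markers lay at 1.78 and 5.74 CPM in the tumors and 1.75 and 1.41 CPM in hyperplasia. The part of these cells in the tumor differences was not tested.

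**Figure D5:**
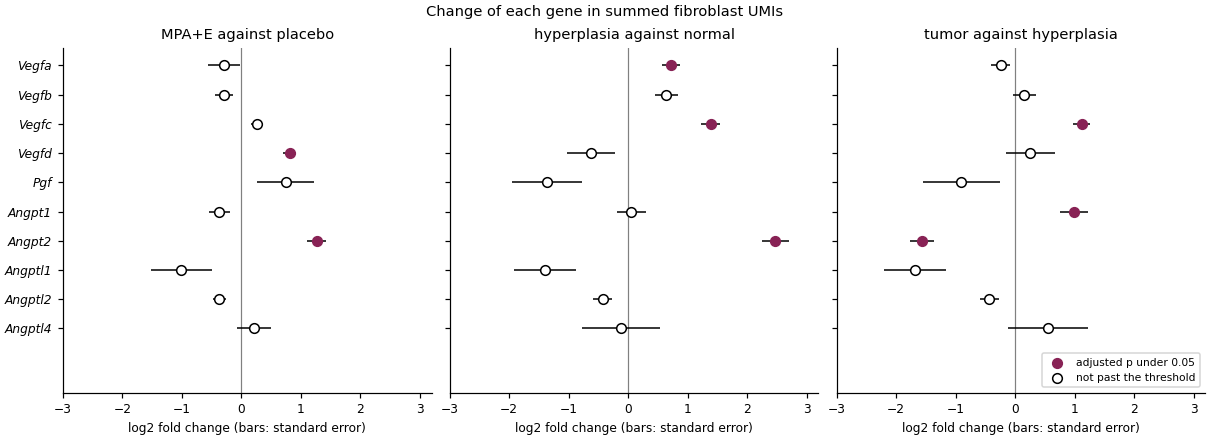
Log2 fold change of each gene with its standard error in MPA+E against placebo (edgeR), hyperplasia against normal and tumor against hyperplasia (limma-voom), with the genes that passed an adjusted p of 0.05 marked. The edgeR standard errors were derived from the F statistic. Angpt2 is higher with MPA+E (1.27) and in hyperplasia (2.47) and lower in the tumors (-1.56), and Vegfc is higher at both steps of the model (1.39 and 1.12).

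Other genes of these pathways were read from the same fits. Of 10 receptor genes tested with MPA+E, 2 rose and 2 fell (edgeR, adjusted p under 0.05), where 4.33% of all genes were called in either direction. Kdr, the receptor for Vegfa, was at 14.2 and 14.1 CPM with placebo and 43.2 and 45.2 CPM with MPA+E, a log2 fold change of 1.65, and Itgb3, an integrin subunit, rose by 0.85. Tek, the angiopoietin receptor, went from 87.2 and 80.1 to 43.3 and 43.3 CPM, a log2 fold change of -0.94, and Nrp2, a co-receptor of Vegfc, fell by 0.85 on the log2 scale. The receptor genes Tek and Kdr were thus themselves counted in fibroblasts and changed in opposite directions.

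In the other lists under MPA+E, Angptl8, a partner of the lipase-inhibiting family, rose (1 of 4 relatives, log2 fold change 1.1, at 0.985 to 2.36 CPM), and Sema3e, a repulsive guidance cue for vessels, fell (1 of 10 inhibitors, -0.77), where 2.69% of all genes were called higher and 1.64% lower. Of 9 lipid genes 1 was called higher and 1 lower by edgeR, and 1 higher and 3 lower by DESeq2. Pparg, the adipogenic nuclear receptor that also drives Angptl4, fell from 23.2 and 19.8 to 10.7 and 10.4 CPM (log2 fold change -1.01). Gpihbp1, which anchors lipoprotein lipase, was the one called higher, at 0.0139 to 0.263 CPM. Of 13 hypoxia pathway genes 0 were called by edgeR, DESeq2 or limma-voom, with 1 higher and 1 lower at an unadjusted p under 0.05, the most abundant being Ldha (log2 fold change -0.02) and Adm (-0.78, adjusted p = 0.260, edgeR).

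In hyperplasia against normal, Nrp2 rose from 3.63 and 9.26 to 34.8 and 28.4 CPM (log2 fold change 2.32) and Kdr fell from 21.4 and 26.5 to 4.27 and 12 CPM (-1.72, limma-voom), 2 of 3 receptors called among 11, in a comparison that called 7.70% of all genes higher and 6.29% lower. The third, Pirb, a receptor of angiopoietin-like proteins, stayed under 0.6 CPM. Among the receptors edgeR called 2 higher and 0 lower, so that Kdr was not called, and DESeq2 called 2 higher and 2 lower. Among 4 relatives Angptl7 rose (1.88) and Angptl6 fell (-1.23), both under 4 CPM. Of 10 inhibitors 0 were called by limma-voom or edgeR and 2 by DESeq2, with 2 at an unadjusted p under 0.05. The most abundant by the mean over the 13 libraries were Serpinf1 (log2 fold change -0.30) and Timp3 (0.15). Adamts1 lay at 658 and 634 CPM in normal and 1268 and 994 CPM in hyperplasia and was not called by limma-voom. Among 13 hypoxia genes Bnip3 (1.13) and Epas1 (1.09) rose and Egln3 (-1.97, under 0.5 CPM) fell. Of 9 lipid genes 1 was called higher and 1 lower by limma-voom, and 3 higher and 1 lower by DESeq2. Pparg rose by 0.75, and Gpihbp1 was at 0 in both hyperplasia libraries against 0.472 and 0.447 CPM in normal.

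In tumor against hyperplasia the hypoxia pathway list had 7 of 13 genes higher and 1 lower, with a median log2 fold change of 0.87, while 15.4% of all genes were higher and 13.9% lower with a median of -0.01. Hif1a, the hypoxia-inducible subunit, went from 75.4 and 75.0 to 217 and 239 CPM (log2 fold change 1.60). The glucose transporter gene Slc2a1 went from 11.1 and 9.61 to 30.2 and 48.8 CPM (1.90), the glycolytic gene Pgk1 from 43.4 and 56.5 to 122 and 242 CPM (1.80), and Egln3 was also called (4.34, at most 2.11 CPM). Vegfa, a target of this pathway, is not among the genes that rose in the tumors.

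The lipid list of Angptl4 had 6 of 9 genes lower and 0 higher in the tumors by limma-voom, edgeR, DESeq2 and at an unadjusted p under 0.05, with a median of -1.83, where 13.9% of all genes were lower. Cd36, a fatty acid transporter, went from 9.86 and 17.8 to 0.985 and 0.399 CPM (log2 fold change -4.38), and Plin2, a lipid droplet coat protein, from 212 and 339 to 64.3 and 77.0 CPM (-1.92). Pdk4 (-2.76) and Ppara (-1.85) fell as well. Angptl4 itself did not pass without the mouse block, as given above.

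Among 10 inhibitors, Thbs1 went from 476 and 296 to 1096 and 1334 CPM (1.69) and Thbs2 rose (1.22), both thrombospondins that restrain vessel growth, while Sema3e (-3.35) and the protease gene Adamts1 (-1.30) fell, of 3 called higher and 2 lower. Of 11 receptors 4 rose and 1 fell, beside the same 15.4% and 13.9% of all genes, including Flt1 from 1.42 and 1.33 to 4.32 and 10.3 CPM (2.27), Itga5 (1.04), and Flt4 and Pirb near 0 CPM. Among 4 relatives Angpt4 (2.38) and Angptl8 (1.35) rose and Angptl7 (-3.04) fell, each at most 5.19 CPM.

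The genes whose levels over the 13 libraries ran most like each member were found by Spearman's rho among 7866 genes with a mean of at least 10 CPM. The libraries share groups and depth differences, so that these are descriptions. Vegfa was nearest to Arf6 (rho 0.98), Syde2 (0.95) and Atp13a3 (0.93), and Vegfb to Ctsk (0.90), Rab21 (0.88) and Casc4 (0.87). Vegfc was nearest to Lbh (0.97), Sept11 (0.97) and Lox (0.97), the last a collagen crosslinking enzyme and one of the ECM remodelling markers. Vegfd was nearest to the complement genes Cfb (0.85) and C4b (0.82) and to Gda (0.80), and Pgf to Thbd (0.95), Triobp (0.93) and Tmod1 (0.92). Angpt1 was nearest to Tspan11 (0.92), Svil (0.91) and F3 (0.90), the last an adipogenesis-regulatory marker. Angpt2 was nearest to Carmil1 (0.96), Col13a1 (0.91) and Tut7 (0.91). Angptl1 was nearest to Tmeff2 (0.92), Fgf10 (0.90) and Serpina3c (0.88), and Angptl2 to Fam171b (0.96), Ppp1r9a (0.92) and Serpina3c (0.90), so these 2 members share a neighbour. Angptl4 had the loosest neighbours beside Vegfd, with Hpcal1 (0.85), Nol8 (0.83) and Capg (0.81).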

How the data were processed

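The deposited values are whole UMI counts per gene and cell, which the authors made with Cell Ranger 6.1.2 against mm10 (per the submitters' processing notes) from 10x 3′ v3 libraries, as filtered barcodes. No column of another sample was present (0). Here fibroblasts were selected by the rule in the text, and their UMIs were summed per library (47521842 to 102522735 UMIs). MPA+E and placebo were compared with edgeR 4.0.16 (quasi-likelihood, TMM scaling, filter on low counts), and normal, hyperplasia and tumor with limma 3.58.1 (voom), with Benjamini-Hochberg adjustment over all genes tested and calls at adjusted p under 0.05. The standard errors given with edgeR were derived from its F statistic, as the absolute log2 fold change over the square root of F. Alternatives were DESeq2 1.42.0, other scaling, filters, cell limits, doublet removal, libraries left out and a replicate block. States came from Leiden clustering per library (scanpy 1.11.5, resolution 0.8), and the rule for naming clusters was set after cluster tables were seen. Scrublet's own threshold called 0 to 304 cells per library and was not used. Doublets were kept, and an alternative left out the 3.86% to 10.6% of cells with the highest doublet scores.

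Hyperplasia and tumor pair by mouse per the labels (correlation of deviations 0.0954 over 16001 genes). All members are named. From each pathway list, up to 4 called genes with the largest change are named, or the 2 most abundant where none was called, and for each member the 3 genes most like it. The members and lists were chosen with earlier results of these data known. Scripts were tested on simulated data.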

Additional observations from a re-analysis of the deposited data

How the results depend on the processing

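Direction and call were kept in 368 of the 420 member results recomputed under alternatives in the 3 tested comparisons, while 24 lost and 19 gained a call and 9 reversed. Of 50 stage ratios, 8 moved beyond counting error. Over all genes, MPA+E against placebo called 678 genes, with DESeq2 1358 and with the replicate block 2451. The numbers of the hormone libraries mark no shared animal or day in the labels (correlation of deviations 0.396 over 15642 genes, 2 pairs), and the block adds calls for Pgf, Angpt1 and Angptl2. Tumor against hyperplasia called 4777, and 4898 with the block, a fit that also left out the normal libraries. Beside Angpt1 and Angptl4 no call of a member changed in it. Hyperplasia against normal called 2280 and with DESeq2 4017, and no paired analysis was possible because these groups share no mouse. Leaving out 1 library gave 22 to 900, 242 to 7120 and 1 to 4810 calls in these comparisons, a lone library being assumed to vary like the other groups. The cause of these shifts was not tested.

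The reversals came with 1 library left out, none of them called. With MPA+E, Vegfa ranged from -0.69 to 0.0163 and Angptl4 from -0.22 to 0.54 (log2). In tumor against hyperplasia Vegfb ranged from -0.0213 to 0.34, Vegfd from -0.42 to 0.95 and Pgf from -1.89 to 0.23. In hyperplasia against normal Angpt1 ranged from -0.19 to 0.31 and Angptl4 from -1.05 to 0.76. The median share of fibroblasts with a UMI over members and libraries was 6.81% at 2000 UMIs, 9.37% at 3000 and 22.7% without thinning, so that depth sets these shares. The 7 members over 2 fold among stages stayed at 7 under each alternative, and the 9 with a leading state were 8 to 9, although the state of Vegfd became progenitor at resolution 0.5 and that of Vegfa adipogenesis-regulatory at 1.2, Angptl4 lost its state at 1.2 and Vegfb when doublets were removed.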
